A study of Saccharomyces cerevisiae with 3 samples.

Results

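Genes that build and remodel glucan and chitin, the structural polysaccharides of the yeast cell wall, were examined in Saccharomyces cerevisiae exposed to caspofungin. The 39 genes were taken by function and not by their measured values, out of 6207 open reading frames (ORFs) in the deposited table. They comprised 27 glucan genes and 12 chitin genes. Caspofungin-treated cells (15 ng/ml, collected after 2 h) were compared with untreated cells split from the same culture, on arrays read in 2 colours. Both cell populations were of the strain MID2extWSC1cyt in the BY4741 background and grew in YEPD at 24 °C. The name denotes a chimeric wall sensor, Mid2 outside the cell and Wsc1 inside it, and no other strain entered the comparison. The labels describe 2 cultures, each hybridized with both dye orientations, and arrays 1, 2 and 4 were analysed here. Array 1 carried the RNA of treated cells in Cy3 and that of untreated cells in Cy5, and arrays 2 and 4 carried them the other way round. Which culture array 1 came from is not labelled, so the spread between arrays may be partly technical.

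Caspofungin blocks the synthase at the plasma membrane that polymerizes the main, β-1,3-linked glucan. Secreted enzymes then trim, elongate and branch the glucan chains, and the products of the KRE genes are needed for the shorter β-1,6-linked glucan that anchors mannoproteins. Chitin is made from UDP-N-acetylglucosamine by separate synthases, mostly at the bud neck and septum, and a weakened wall is known to receive extra chitin in its lateral parts. Transcripts of several of these enzymes are known targets of the cell wall integrity and calcineurin pathways.

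Each value below is a deposited log2 ratio of 1 array. The labels and the file state neither the direction of the ratio nor how it was centred. The values are read as treated over untreated, in which case a positive value means more transcript in treated cells. On that reading array 1 had already been turned to match arrays 2 and 4, an assumption that rests on its positive correlation with them across ORFs (Pearson's r 0.436 with array 2 and 0.394 with array 4), which a shared dye effect could also give. If array 1 was not turned, every array 1 value below changes sign, and the main counts and means are given that way too. The median ORF stood at −0.24, −0.14 and −0.93 on arrays 1, 2 and 4, and the values were wider on array 4 (SD 1.55) than on array 1 (0.809) or array 2 (0.436). Values were listed for 3 of 5 genes specific to the a mating type of BY4741 and for 0 of 3 specific to the alpha type, while the row of the alpha-type regulator MATALPHA2, looked up after its values were seen, had −0.76 and −0.27 on arrays 1 and 2. These counts check the strain weakly, since an empty cell does not show that a transcript was absent. LEU2, which BY4741 lacks, had −0.75 and 0.16 on arrays 1 and 2, and HIS3, partly deleted in BY4741, had −1.20 and −0.07. MET17 and URA3, also deleted in BY4741, had no value on any array. If the strain derived from BY4741 still lacks LEU2, a listed value does not by itself show that a transcript was present. The part of each gene that its probe covers is not stated.

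Of the 39 genes, array 1 measured 25 (64.1%), array 2 measured 24 (61.5%) and array 4 measured 8 (20.5%). Over all ORFs these shares were 60.4%, 45.6% and 13.8%. Both array 1 and array 2 measured 18 glucan genes and 6 chitin genes, and these 24 genes carry most of what follows. All 3 arrays measured 5 glucan genes (GSC2, EXG1, SUN4, UTH1 and ROT2) and 0 chitin genes. No array had a value for 7 glucan genes (FKS1, FKS3, GAS4, SCW10, KNH1, SKN1 and UTR2) or for 4 chitin genes (CHS1, CHS2, SKT5 and GFA1). The filter behind empty cells is not stated, so an empty cell is no measure of expression. The wall enzymes BGL2, SCW4 and CTS1 were measured on array 4 alone, 3 of the 8 genes of the set on that array, where 109 of all 855 values (12.7%) were of this kind.

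**Figure D1:**
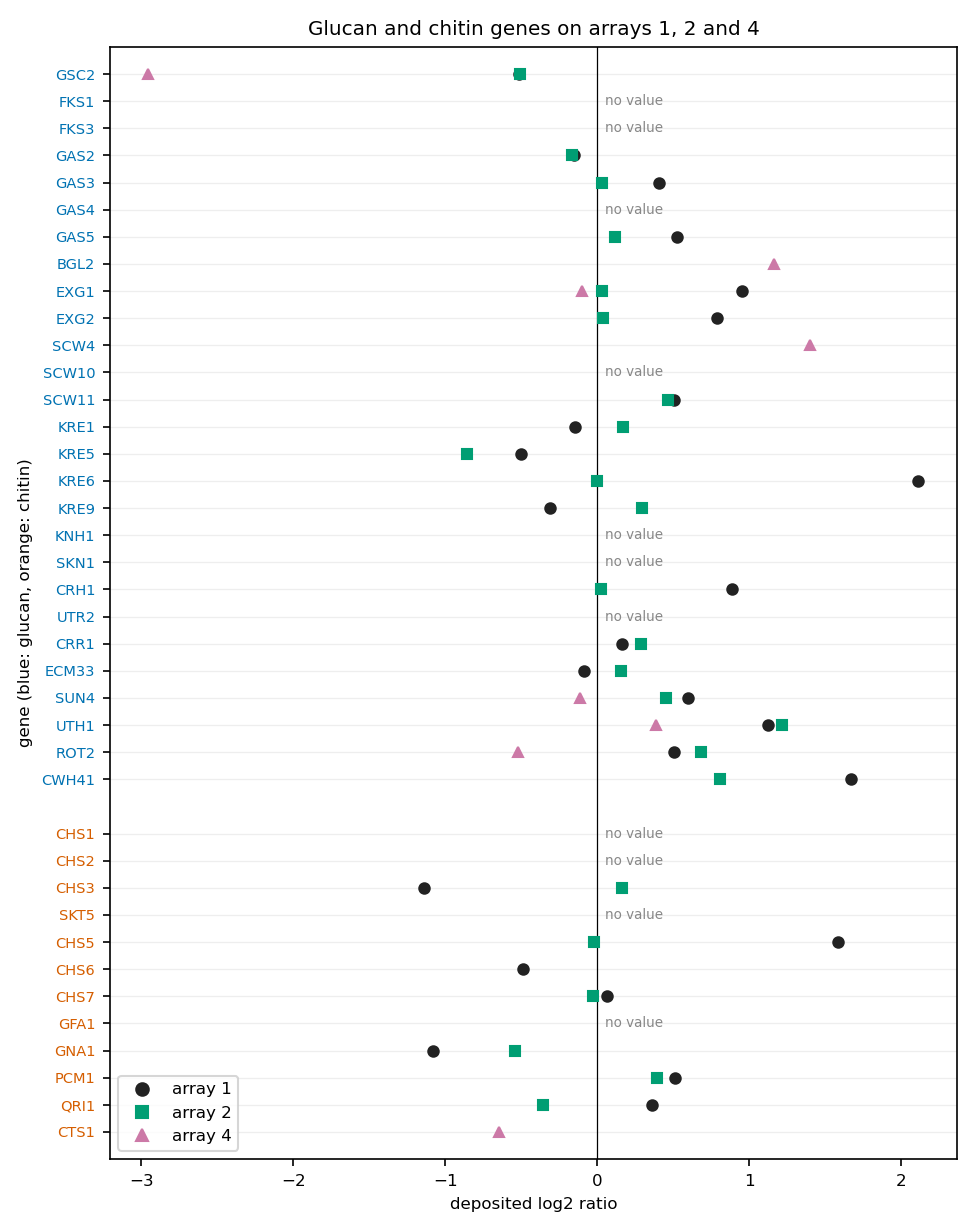
Deposited log2 ratios (horizontal axis) of the 27 glucan genes (blue names) and 12 chitin genes (orange names), with 1 point per array. UTH1 lay right of 0 on all 3 arrays and GSC2 left of 0 on all 3, and 11 genes had no value.

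Among the catalytic subunits of β-1,3-glucan synthase, the target of caspofungin, a single gene was measured. GSC2 (YGR032W, also called FKS2), the alternative subunit that is known to be induced when the wall is stressed, had −0.52, −0.51 and −2.95 on arrays 1, 2 and 4. It was negative on every array, as were 45.4% of the 723 ORFs measured on all 3, and stood at the 33.8th, 9.8th and 9.5th percentile of arrays 1, 2 and 4. In RNA from whole cultures, a change in the share of cells at 1 stage of the cell cycle and a change per cell cannot be told apart. The limma fit of the 3 arrays, with a term for the dye, gave GSC2 −1.12 ± 0.73 (SE, adjusted p = 0.868), and the mean of arrays 1 and 2 was −0.51. The SE of this fit was pooled over all ORFs and does not measure the spread of GSC2 itself. GSC2 was not called, and its value without array 4 was less than 0.5 of the fitted one. The fitted value was −0.74 after median centring and −0.37 with the trend of values over gene length removed, as described below. With array 1 turned, GSC2 had 0.52 on array 1 and the fit gave −0.61, while its mean over arrays 1 and 2 was 0.01. On that reading 10.8% of the 723 ORFs were negative on all 3 arrays. FKS1, the main subunit in growing cells, and FKS3, a homologue linked to spore formation, had no value. FKS1 therefore could not be set beside GSC2.

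The GAS family encodes glucanosyltransferases that elongate β-1,3-glucan chains. GAS5 had 0.52 and 0.12 on arrays 1 and 2, and GAS3 had 0.40 and 0.03. GAS2, which acts in spore wall assembly together with GAS4, had −0.16 and −0.17. On neither array was any of these 3 genes as much as 1.5-fold from a ratio of 1. The limma adjusted p lay between 0.562 for GAS5 and 0.754 for GAS2.

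The secreted glucanases were positive wherever arrays 1 and 2 measured them. SCW11, a glucanase-like protein of daughter cell separation, had 0.51 and 0.47 on arrays 1 and 2, nearly the same value on both. EXG1, the major secreted exoglucanase, had 0.95 and 0.03 on these arrays and −0.10 on array 4. EXG2, its membrane-anchored relative, had 0.79 and 0.04. For EXG1 and EXG2 nearly all of the signal was on array 1. BGL2, the abundant wall endoglucanase, had 1.16 on array 4, and SCW4, of the same family, had 1.40 there. These correspond to ratios of 2.24 and 2.64 and to the 94.6th and 95.9th percentile of that array, without a second measurement of either gene.

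The KRE genes of β-1,6-glucan assembly had no common sign. KRE5, a protein of the endoplasmic reticulum (ER), had −0.50 and −0.85 on arrays 1 and 2, a mean of −0.68 ± 0.25 (SD, n = 2 arrays). On array 2 it stood at the 1.8th percentile of all ORFs. KRE6, a membrane protein similar to glycosyl hydrolases, had 2.11 on array 1 and 0.00 on array 2. That gap of 2.11 was reached by 0.53% of the 2818 ORFs measured on both arrays, so the mean of 1.06 for KRE6 rests on array 1 alone. KRE9, a secreted glycoprotein, had −0.31 and 0.29, and KRE1, a glycosylphosphatidylinositol (GPI)-anchored protein of the cell surface, had −0.15 and 0.17. The paralogues of KRE6 and KRE9, SKN1 and KNH1, had no value.

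The CRH enzymes link chitin to glucan and so act on both polymers. CRH1, a known target of the cell wall integrity pathway, had 0.88 and 0.02 on arrays 1 and 2, again with the signal on array 1. CRR1, its relative in spore wall formation, had 0.16 and 0.29. UTR2, the other vegetative member, had no value. ECM33, a GPI-anchored protein needed for an ordered wall, had −0.09 and 0.16, within 0.25 of each other on either side of 0.

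The SUN family, named after SIM1, UTH1 and NCA3, acts in cell separation and wall remodelling, and both of its genes in the set were positive on arrays 1 and 2. UTH1 (YKR042W) had 1.12, 1.21 and 0.38 on arrays 1, 2 and 4. It was the one gene of the 5 measured on all arrays that was positive on each, where 7.61% of the 723 ORFs on all arrays were. On arrays 1 and 2 its ratios were 2.18 and 2.32, and on the 3 arrays it stood at the 95.8th, 98.7th and 86.9th percentile. With array 1 turned, UTH1 had −1.12 on array 1 and a fitted value of −0.16, and 2.9% of the 723 ORFs were positive on all 3 arrays. SUN4 had 0.60, 0.45 and −0.11, and its percentiles of 87.4, 92.2 and 78.8 were above the middle of every array, array 4 included. SIM1, a further family member outside the 39 genes, had 1.47, 1.29 and −0.49, while NCA3 had −0.65 and 0.14 on arrays 1 and 2. The members of this family, NCA3 included, share a conserved domain, and cross-hybridization between them was not tested.

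The ER glucosidases trim glucose from newly attached N-glycans, and yeast lacking them is known to make less β-1,6-glucan. CWH41 (YGL027C), glucosidase I, had 1.67 and 0.81 on arrays 1 and 2, ratios of 3.18 and 1.75. ROT2, the catalytic subunit of glucosidase II, had 0.50 and 0.68 on these arrays and −0.52 on array 4. ROT2 still ranked at the 67.0th percentile of array 4, since most ORFs were negative there. Both enzymes of the trimming pathway were thus positive on arrays 1 and 2.

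The chitin synthases and the proteins that deliver them had no common sign either. CHS3, the synthase of the bud-neck ring and of lateral wall chitin, had −1.14 on array 1 and 0.16 on array 2, ratios of 0.454 and 1.12. CHS5, part of the exomer coat that carries Chs3 to the surface, had 1.59 on array 1 and −0.02 on array 2. CHS7, the chaperone for export of Chs3 from the ER, had 0.06 and −0.03. CHS6, another exomer protein, had −0.49 on array 1 alone. Of the 24 genes on both arrays, 3 had values at least 1 apart (KRE6, CHS3 and CHS5), which is 12.5%, against 11.1% of all ORFs.

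The steps that supply UDP-N-acetylglucosamine also differed from each other. GFA1, the first and rate-limiting enzyme, had no value. GNA1, the glucosamine-phosphate acetyltransferase, had −1.08 and −0.54 on arrays 1 and 2, a mean of −0.81 ± 0.38 (SD, n = 2 arrays). PCM1, the mutase of the next step, had 0.51 and 0.39, a mean of 0.45 ± 0.08 (SD, n = 2 arrays). QRI1, the pyrophosphorylase that completes the pathway, had 0.36 and −0.36. CTS1, the chitinase that separates mother and daughter cells, had −0.65 on array 4 alone, at the 61.4th percentile of that array.

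**Figure D2:**
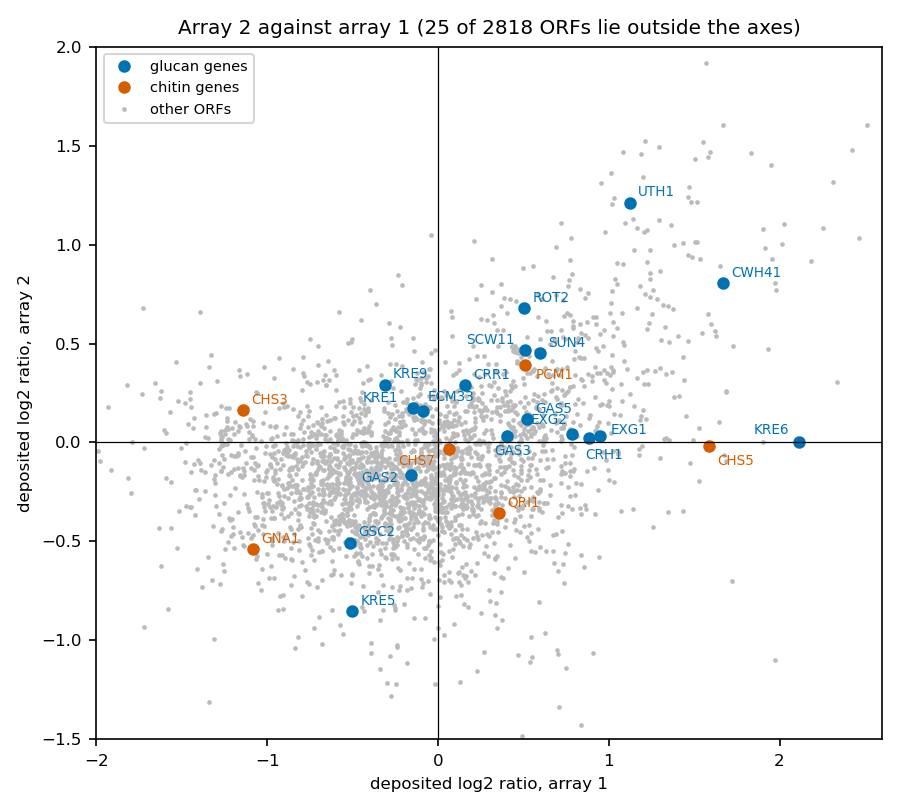
Deposited log2 ratio on array 2 (vertical) against array 1 (horizontal) for the 18 glucan genes (blue), the 6 chitin genes (orange) and other ORFs measured on both (grey). UTH1 and CWH41 lie far out on both axes, while KRE6 and CHS5 lie far out on array 1 and near 0 on array 2.

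No glucan or chitin gene passed the gene-wise test. On the 3 arrays together, 0 of 5 genes were called by limma at a Benjamini-Hochberg adjusted p under 0.05, where 0.277% of 723 ORFs were called, and 0 had an unadjusted p under 0.05 (3.18% of all ORFs). UTH1 had the largest positive fitted value of the 5, 0.96 ± 0.73 (SE, limma adjusted p = 0.868). All 5 genes had this same SE, since the fit pooled the spread over all ORFs. On arrays 1 and 2 alone, 0 of 24 genes were called, where 0.887% of 2818 ORFs were, each of those with a positive value. Here the dyes are in opposite orientation, so that a dye effect cancels in the mean if array 1 had already been turned. If it had not, a dye effect stays in the mean and the treatment effect cancels. At an unadjusted p under 0.05 there were 5 of 24 genes, against 13.5% of all ORFs. They were UTH1, CWH41, GNA1, KRE5 and KRE6.

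UTH1 came nearest to a call on arrays 1 and 2, with a mean of 1.17 ± 0.26 (SE, limma adjusted p = 0.088). CWH41 followed with 1.24 ± 0.30 (SE, limma adjusted p = 0.102). These 2 genes had means past 2-fold with 1 sign on both arrays, positive in each case. They are 8.33% of the 24 genes, where 3.69% of all ORFs reached this size with a shared sign, 3.05% positive and 0.639% negative. With each array centred on its median, 3 genes were called on arrays 1 and 2, CWH41 (limma adjusted p = 8.23e-04), UTH1 (limma adjusted p = 0.00174) and KRE6 (limma adjusted p = 0.00541). Of all ORFs, 134 were then called, against 25 before, and the median of all ORFs moved from −0.18 to 0.00. This centred fit pooled the spread over all ORFs and gave each the same SE (0.33). The gap between the 2 values of KRE6 therefore did not enter its SE. If array 1 was not turned, the means of UTH1 and CWH41 were 0.05 and −0.43, and 17 of the 24 genes changed sign.

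On arrays 1 and 2 together, 11 of the 18 glucan genes were positive on both (61.1%), 3 were negative on both (16.7%) and 4 were neither. Over all ORFs, 20.5% were positive on both and 47.1% negative on both. The median of the 18 means was 0.37, where that of all ORFs was −0.18. The 11 positive genes were CWH41, UTH1, ROT2, SUN4, EXG1, SCW11, CRH1, EXG2, GAS5, CRR1 and GAS3, and the 3 negative ones were KRE5, GSC2 and GAS2. With array 1 turned, none of these 11 genes was positive on both arrays. The count was then 3 of 18 (16.7%, ECM33, KRE9 and KRE1), with 0 negative on both, where 12.9% of all ORFs were positive on both and 19.5% negative on both. With the medians of each array in place of 0, 14 of the 18 were above on both arrays and 2 (GSC2 and KRE5) were below on both, where 31.4% and 25.9% of all ORFs were. KRE1, KRE6 and ECM33, which were not among the 11, were among the 14. With array 1 turned, 1 (KRE9) was above both medians and 1 (GAS2) was below both, where 18.6% and 24% of all ORFs were. A list chosen by function has no test of its own here, and the genes are not replicates of the treatment.

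Chitin genes had lower medians than glucan genes on each array as deposited, by less than the range within either group on arrays 1 and 2. On array 1 the median of 18 glucan genes was 0.51 (range −0.52 to 2.11) and that of 7 chitin genes was 0.06 (range −1.14 to 1.59). On array 2 the medians were 0.14 for 18 glucan genes and −0.03 for 6 chitin genes, with ranges of −0.85 to 1.21 and −0.54 to 0.39. On array 4 the median of 7 glucan genes was −0.10, against −0.65 for CTS1 as the sole chitin gene. The glucan minus chitin difference was thus 0.44, 0.16 and 0.55, with a mean of 0.38 ± 0.20 (SD, n = 3 arrays). Over the genes measured on both arrays 1 and 2, which leaves out CHS6 and array 4, the mean difference was 0.23. Chitin genes had 1 of 6 positive on both arrays (PCM1), 1 of 6 negative on both (GNA1) and 4 neither. Their median mean was 0.01, where that of all ORFs was −0.18. Above the medians of both arrays were 3 of 6 (PCM1, CHS7 and CHS5), against 31.4% of all ORFs. Below both medians was 1 of 6 (GNA1), against 25.9%. With array 1 turned, 1 of 6 was positive on both (CHS3), against 12.9% of all ORFs. On that reading 3 of 6 were negative on both (QRI1, CHS7 and CHS5), against 19.5%. With array 1 turned the mean difference was 0.09. No test was made of this difference, since sign changes over 3 arrays allow a two-sided exact p no smaller than 0.25.

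**Figure D3:**
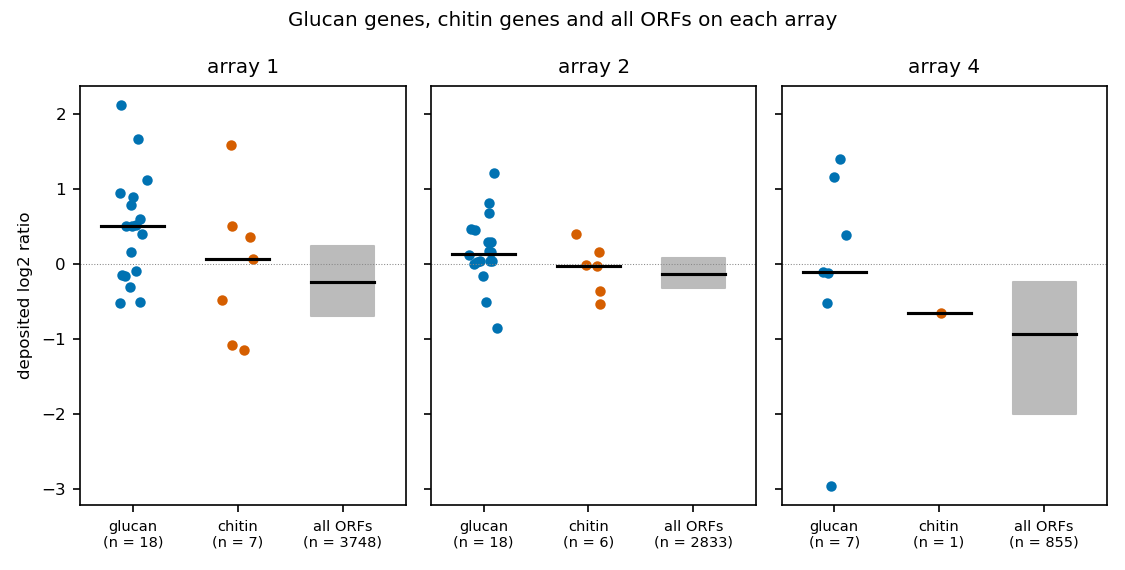
Deposited log2 ratios of glucan genes (blue points) and chitin genes (orange points) on each array, with the median as a black line, beside the middle 50% (grey band) and the median of all ORFs. On each array the glucan median lies above the chitin median, and the points of the 2 groups overlap on arrays 1 and 2.

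The values of all ORFs varied with gene length, introns included, and the measured genes of the set had a longer median length than all ORFs. Across ORFs, Spearman's rho between value and length had values of 0.348, 0.392 and 0.047 on arrays 1, 2 and 4, given as a description. On array 1 the median ORF of 675 bp or less had −0.74, that of 1479 to 2121 bp had 0.22, and that of 2124 bp or more had −0.26. The measured glucan and chitin genes had median lengths of 1598 and 1554 bp on arrays 1 and 2, against 1152 bp for all ORFs there. With this trend removed from each array, which also centres the array, 13 of 18 glucan genes (72.2%) and 2 of 6 chitin genes were positive on both arrays, where 31.7% of all ORFs were. With array 1 turned as well, these counts were 1 of 18 glucan genes (ECM33) and 1 of 6 chitin genes (CHS3), where 18.5% of all ORFs were positive on both. With the trend removed and array 1 as deposited, the median of means was 0.30 for glucan genes, 0.11 for chitin genes and 0.03 for all ORFs.

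Removal of the length trend moved single genes in different directions. UTH1, of 1098 bp, had 1.23, 1.39 and 1.06 on arrays 1, 2 and 4, and its mean of 1.31 on arrays 1 and 2 was the sole call in the set (limma adjusted p = 0.0306, with 1.44% of 2714 ORFs called). CWH41 had a mean of 1.15 (limma adjusted p = 0.0999). SUN4 then had 0.56, 0.57 and 0.53, and ROT2 had 0.54, 0.58 and 0.69, so that both were positive on each array. The median ORF of array 4 then stood at 0.03 in place of −0.93. The share of all ORFs positive on each array was not counted with the trend removed. GNA1, the shortest gene of the set at 480 bp, had −0.29 and −0.28 in place of −1.08 and −0.54. GSC2, the longest at 5688 bp, had 0.24, −0.49 and −1.47, and was no longer of 1 sign. On array 1 the glucan minus chitin difference was 0.12 in place of 0.44.

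**Figure D4:**
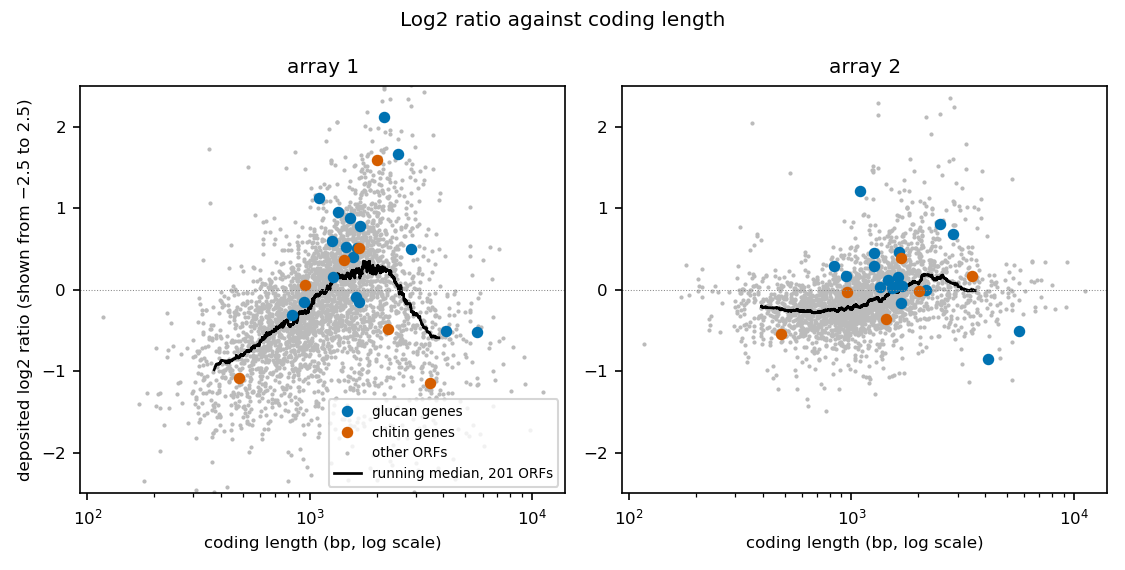
Deposited log2 ratio against gene length with introns (axis labelled coding length, base pairs, log scale) on arrays 1 and 2. Glucan genes are blue, chitin genes orange and other ORFs grey, and the line is a running median over ORFs. 29 ORFs on array 1 and 7 on array 2 lie beyond 2.5 in size. UTH1 and CWH41 lie above the line on both arrays, and GNA1 lies at a length where the line is below 0. With the length trend removed, GNA1 was still negative on arrays 1 and 2 (−0.29 and −0.28).

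Further genes of the same pathways did not pass the test either. Of 9 other glucan genes measured on arrays 1 and 2, 0 were called, where 0.887% of all ORFs were. Of the 9, 3 were positive on both and 3 negative on both, and the median of their means was −0.13. Over all ORFs, 20.5% were positive on both and 47.1% negative on both, with a median of means of −0.18. SIM1 was the highest of the 9 at 1.38 (limma adjusted p = 0.0572). KEG1, an ER protein that binds Kre6, was the lowest of them at −0.82. RHO1, the regulatory GTPase of glucan synthase, had −0.03, −0.27 and −0.81 on arrays 1, 2 and 4. The median ORF had −0.24, −0.14 and −0.93 there. Of 11 other chitin genes, 2 were measured on arrays 1 and 2, the chitinase CTS2 (mean −0.34) and PFA4, a palmitoyltransferase of Chs3 (mean −0.13). In the cell wall integrity pathway 5 of 23 genes had both values, 1 positive and 4 negative on both, beside the all-ORF shares above. The median of their means was −0.27. MKK1, a kinase of the cascade, had a mean of 0.43, and ROM1, an exchange factor for Rho1, had −0.51. None of these was called by limma.

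Some genes of the set lie side by side in the genome. SCW11 and CWH41 are direct neighbours and were both positive on arrays 1 and 2, with means of 0.49 and 1.24. SCW4 and BGL2, separated by 2 genes, were both measured on array 4 alone, at 1.40 and 1.16. SCW10 and FKS3 are direct neighbours and neither had a value. FKS1 and GAS2 are separated by 1 annotated gene, and of this pair GAS2 alone was measured. The labels do not say whether neighbouring ORFs were also neighbouring spots on the array.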

How the data were processed

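The authors deposited 1 log2 ratio per ORF and array. The base follows from the values: as powers of 2, 100% of them fell within 0.01 of a step of a multiple of 0.0001, and at most 2.57% did with another base or sign. Background correction, normalization, filter and scanner: not given in the sources used here. Names and gene lengths, introns included, came from the RefSeq gene table of R64, matched by locus tag (5654 ORFs, every one of the 39 genes included). The table gives no sequences, so no promoter motifs were searched. Ratios were tested with limma 3.58.1 (R 4.3.3) and Benjamini-Hochberg adjustment over all ORFs in the fit, once on arrays 1, 2 and 4 with a dye term and once on arrays 1 and 2. Each fit leaves 1 residual degree of freedom and counts arrays as independent. The main fit of the 3 arrays and the median-centred fit of arrays 1 and 2 each used 1 SE common to all ORFs. Length trends were removed by loess (span 0.75) of each array on log2 length. The genes, lists and settings were chosen with earlier results of these data known. The number of arrays limits the precision. The genes named were the 39 and genes of 3 further pathway lists. From lists of mating type, sporulation (0 of 4 genes with a value) and deleted genes, LEU2, HIS3, MET17 and URA3 were named. MATALPHA2 was added later. GAS1 was not analysed here.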

Additional observations from a re-analysis of the deposited data

How the results depend on the processing

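With so few arrays, agreement between settings carries little weight. The count of 0 genes called on the 3 arrays was the same (0 to 0) under each of the 15 alternatives run. These included leaving out each array. Several of them, such as median centring, quantile normalization and leaving out array 1 or array 2, called 0% of all ORFs, so they could call no member. The largest share of all ORFs called was 1.66%, with arrays 1 and 4 averaged. Turning all arrays changes only the signs of the main fit, and the fit without array 4 is that of arrays 1 and 2. At an unadjusted p under 0.05 in limma there was 1 of 5 genes without array 1 (8.7% of all ORFs), 1 of 5 without array 2 (14.2%) and 5 of 24 without array 4 (13.5%). On arrays 1 and 2 the 0 called genes became 3 after median centring (4.76% of all ORFs called), 2 with centring and equal spread (CWH41 and UTH1, 5.68%), 1 with the length trend removed (1.44%) and 1 at an adjusted p under 0.10 (UTH1, 2.48%), and stayed at 0 with array 1 turned and with robust moderation. The 2 genes of at least 2-fold became 5 at 1.5-fold (ROT2, GNA1 and KRE5 added), 0 at 3-fold and 3 after median centring (KRE6 added). With a value on any 2 of the 3 arrays there were also 2, CWH41 and GSC2, where UTH1 had a mean of 0.91. The share of all ORFs was counted for the main 2-fold limit alone (3.69%). The counts under the other settings therefore cannot be set against all ORFs. The mean glucan minus chitin difference was 0.089 with array 1 turned, 0.28 with the length trend removed, 0.23 over genes on both arrays 1 and 2, 0.43 as means, and 0.30 to 0.49 without an array. Of the 24 genes on arrays 1 and 2, the sign changed in 17 with array 1 turned, in 2 after centring (KRE9 and GAS2) and in 3 with the length trend removed (ECM33, QRI1 and KRE9). Of the 5 genes on 3 arrays it changed in 4 with array 1 turned, in EXG1 without array 1 and in ROT2 without array 2. GSC2 lay between −1.74 and −0.51 without an array. The fits without an array had no dye term. Without array 1, both arrays carried treated RNA in Cy5, so dye and treatment cannot be told apart there. The length trend setting and the sign counts with array 1 turned were chosen after seeing the data. Leaving out an array from arrays 1 and 2 leaves 1 array and no test. No paired analysis was possible because each array already holds treated and untreated RNA of 1 culture, and no 2 groups share replicate numbers.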
